A study of Mus musculus with 6 samples.

Results

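The genes described here carry fatty acids into mitochondria and peroxisomes, break them down there, pass the electrons on, and make ketone bodies, together with 4 genes that control or respond to these pathways. They were chosen as a list of 36 gene symbols, and every probe set annotated with exactly 1 of those symbols was taken. Of the 36 genes, 35 had a probe set, with 59 probe sets in all, out of 18193 genes named by 1 symbol on the array. Acsl1, an acyl-CoA synthetase, had none under its own symbol and was not analysed here. Of the 59 probe sets, 55 were bright enough to be tested (a mean signal over the 6 arrays at or above 167.4, the median of all probe sets), and each of the 35 genes had at least 1 of them. The genes were not picked by how they moved, but the list was drawn up with earlier results of these data known.

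Whole liver was profiled on 6 Affymetrix arrays, 1 for each sample. There were 3 wild-type B6 samples (WT 1 to 3, titled 78, 30 and 31) and 3 LIGHT Tg samples (LIGHT Tg 1 to 3, titled 77, 34 and 35), which carry a transgene for LIGHT, a ligand of the tumour necrosis factor family (gene Tnfsf14). All mice were 4 to 8 weeks old and all had eaten a high-fat diet for 2 weeks, so a chow-fed level is not part of the comparison. Titles and source names set the groups, although the free-text description calls every sample wild-type. B6 is stated for the WT mice only, so strain and transgene cannot be told apart. The promoter and cell type that drive the transgene, the sex of the mice and whether each sample is a separate animal are not stated in the labels. The p-values therefore describe variation among 6 samples that may be technical. In whole liver, a change in RNA per cell and a change in the share of a cell type cannot be told apart.

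In liver, long-chain fatty acids are bound by FABP1, activated to acyl-CoA, and moved across the inner mitochondrial membrane by the carnitine shuttle. The mitochondrial spiral then removes acetyl-CoA in repeated cycles of dehydrogenation, hydration, dehydrogenation and thiolysis, and hepatocytes condense much of that acetyl-CoA into ketone bodies. Peroxisomes run a parallel spiral that shortens very long and branched chains, and the nuclear receptor PPARalpha, bound by fatty acids, is the main activator of both sets of genes.

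WT 1 and LIGHT Tg 1, with titles 78 and 77 and called the pair below, stood apart from the 4 arrays with titles 30 to 35 (the others). Xist, an RNA made from the silenced X chromosome, had signals of 444.0 and 406.6 in the pair and between 7993 and 9714 in the others, and the Y-linked gene Eif2s3y had 1037 and 1272 against at most 2.82 at 1 probe set. At its other probe set, dim on all arrays, Eif2s3y had 62.6 and 41.5 against at most 29.6. Since the pair holds 1 array of each genotype, the fit was also made with this title-number set as a block, and a call that needs the block is given as such. Of 10 hepatocyte markers 9 were measured, and none differed between the genotypes in either fit. Their summed signal lay between 171327 and 175867 in WT and between 172916 and 175478 in LIGHT Tg. Some of them lie near the highest signals of the arrays (24359 to 28859), such as Apoa1 with 23767 to 27829. A limit on bright signals was not tested, so the sum is not a measure of the hepatocyte share. Summed signals of the 8 endothelial markers lay between 7394 and 8192 in WT and between 10574 and 13695 in LIGHT Tg. Of these 8, 2 (3 with the block) were higher in LIGHT Tg at 5% FDR, namely Lyve1 and Vwf, and Stab2 with the block. Clec4g, Pecam1 and Cdh5 had log2 differences of 0.36, 0.19 and 0.12, and Tek and Kdr -0.034 and -0.088, all without a call. The higher sum was thus not shared by all 8 markers. Vwf, 1 of the 2 called without the block, had a WT mean of 7.35 (log2 signal), below the level needed for testing (7.39). It was therefore tested because its LIGHT Tg signals were higher. The sums of 5 B cell and plasma cell markers lay between 1160 and 1444 in WT and between 5041 and 6871 in LIGHT Tg. Only 1 of 3 tested, Ighm, was higher at 5% FDR, and it made up most of each LIGHT Tg sum. At its brightest probe set Ighm had 398.8, 413.8 and 330.4 in WT and 5978, 3872 and 4375 in LIGHT Tg. Another Ighm probe set was also called, with a log2 difference of 4.84. The remaining tested ones had 0.20, -0.39, -0.091 and 0.52, without a call in either fit, so the Ighm probe sets disagreed. Jchain and Ms4a1 had log2 differences of 0.94 and -0.19 without a call. Cd79a (0.099) and Cd79b (-0.37) were too dim to be tested. Of 3 bile duct markers tested 1, Prom1, was also higher (18.4-fold, adjusted p = 0.0134, and 0.00268 with the block). Its signals lay between 60.9 and 235.9 in WT and between 1890 and 2844 in LIGHT Tg. The WT mean of Prom1 was 7.06 (log2 signal), so like Vwf it was tested because its LIGHT Tg signals were higher. The summed signals of 6 bile duct markers overlap (1209 to 6465 and 3163 to 6982). Within the pair the sums were 6465 in WT and 6982 in LIGHT Tg. In the others they were 1209 and 1288 in WT and 3163 and 3496 in LIGHT Tg. Epcam, at its brightest probe set, had 5846 in WT 1 and 3598 in LIGHT Tg 1, and between 219.3 and 755.7 in the others. Of 2 exocrine pancreas markers tested 1 was lower with the block. Their part in the results below was not tested. The ratio of the 3' to the 5' Gapdh control probe set, a sign of RNA integrity, lay between 0.674 and 0.852 in WT and between 0.645 and 0.776 in LIGHT Tg. The same ratio of the actin control probe sets did not overlap, with 1.31, 1.34 and 1.45 in WT and 1.27, 1.29 and 1.28 in LIGHT Tg, and its part in the results was not tested.

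No member passed 5% FDR in the limma fit of the 6 arrays, where 1.17% of the 22519 probe sets tested did (0.715% higher in LIGHT Tg and 0.457% lower). The counts were also 0 with robust fitting and without the variance trend. An unadjusted p below 0.05 was reached by 14 of the 55 member probe sets (25.5%, against 11% of all tested). With the title-number block 9 of the 55 passed (16.4%, against 6.47%): 4 were higher in LIGHT Tg (3.26% of all tested were) and 5 lower (3.21%). The 4 higher were Acsl5, Fgf21 and both probe sets of Vnn1, and the 5 lower were Acadm, Ech1, Acaa1b and both probe sets of Pex11a. These are 7 genes, 3 higher and 4 lower of 35, where 3.63% and 3.52% (7.15% in all) of 11563 genes with 1 probe set each were called. Signals of the genotypes did not overlap at 7 member probe sets that were higher in LIGHT Tg and at 9 that were lower, against 8.17% and 9.19% of all tested. By gene these were 4 higher and 6 lower of 35, against 9.09% and 9.62%. Fgf21 is among the 14 with an unadjusted p below 0.05, the 9 called with the block and the 7 without overlap, and among the higher genes. It was tested because its LIGHT Tg signals were higher (given below), so its place in these counts gives the list no support. The blocked count depended on single arrays. Leaving out WT 1, 2 or 3 gave 4, 5 and 2, and leaving out LIGHT Tg 1, 2 or 3 gave 4, 10 and 6. The brighter Vnn1 probe set passed in all 6 of these blocked fits. In the arrays titled 30 to 35 alone 4 member probe sets passed (4.25% of all tested did): Acadm, 1 of Pex11a and both of Vnn1.

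**Figure D1:**
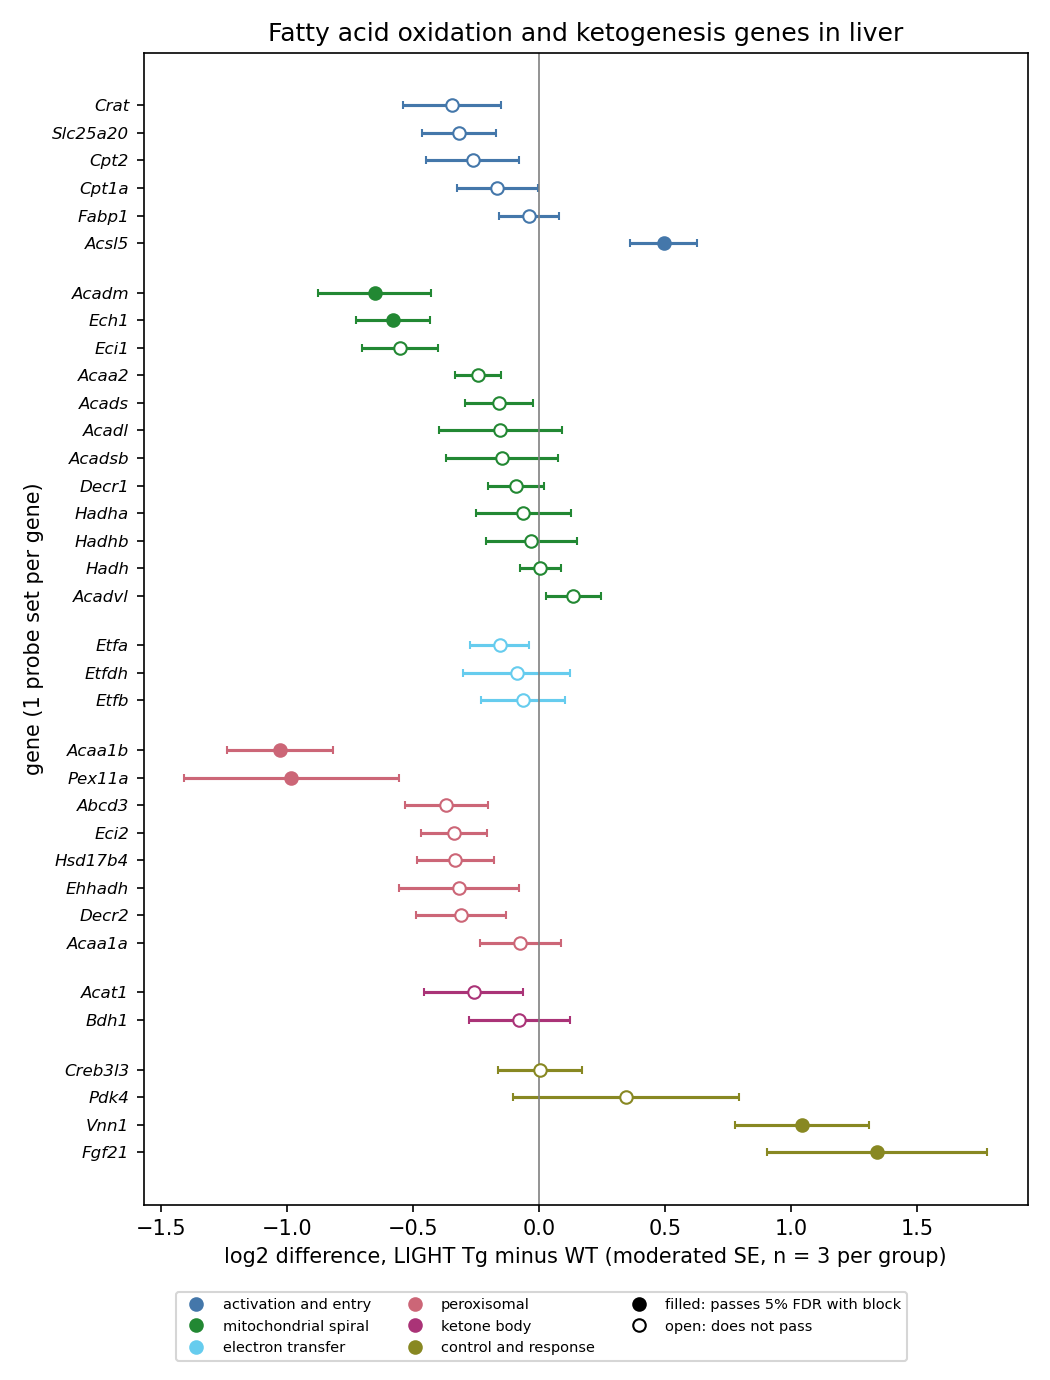
Log2 difference of LIGHT Tg minus WT for 35 genes, grouped by step, each drawn from its brightest probe set; bars are the moderated SE of the fit without the block, n = 3 per group. Filled points passed 5% FDR with the title-number block. All 8 peroxisomal genes lie left of 0, and Vnn1, Fgf21 and Acsl5 lie furthest to the right.

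By step, 1 probe set per gene, the medians of the log2 difference (LIGHT Tg minus WT) were -0.22 for 6 genes of activation and entry, -0.15 for 12 of the mitochondrial spiral, -0.090 for 3 of electron transfer, -0.34 for 8 peroxisomal genes, -0.17 for 2 ketone body genes and 0.69 for 4 genes of control and response. Over the 35 genes the median was -0.16 and 28 had negative values, whereas over all 11563 genes the median was -0.0087 and 51.3% were negative. Among these listed genes the peroxisomal median was therefore further below 0 than the mitochondrial one, by counts 8 of 8 negative against 10 of 12. This is a description, since no test over a list was made. The size of the shift depended on normalization. After quantile normalization the median over the 35 genes was -0.10, with -0.30 for the peroxisomal and -0.11 for the mitochondrial genes. The median over all probe sets tested moved by only 0.0091. Genes of matched signal level were not compared. Leaving out 1 array at a time gave medians between -0.47 and -0.29 for the peroxisomal and between -0.20 and -0.086 for the mitochondrial genes, and between -0.25 and -0.14 over all 35. The mitochondrial value nearest 0 came without WT 3, and the values furthest from 0 came without LIGHT Tg 2 in all 3 cases.

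Promoter sequences of RefSeq (GRCm38.p6, 250 bases before to 50 after a gene's start) were found for 29 of the 35 genes, in 32 windows. They were searched on both strands for the element that PPARalpha binds with RXR, a direct repeat of AGGTCA spaced by 1 base. The exact form AGGTCANAGGTCA was in none of the 32 windows and in 0.0396% of 32851 windows of all genes. The looser form AGGNCANAGGNCA was in 1 of the 32 and in 0.381% of all, and that window was Fabp1's, on the minus strand, from 67 to 55 bases before the start. The hexamer AGGTCA, the repeated unit of the exact form, was in 5 of the 32 windows (Acadm, Acadvl, Cpt1a, Creb3l3 and Fabp1) and in 16.3% of all. AGGNCA, the repeated unit of the looser form, was in 23 and in 57.2%. Shown are Fabp1, as the match; Acaa1b and Acadm, as members that fell with the block; and Fgf21, as one that rose. Capitals mark AGGNCA or its complement.
Fabp1 promoter, chr6:71199629-71199928, plus strand: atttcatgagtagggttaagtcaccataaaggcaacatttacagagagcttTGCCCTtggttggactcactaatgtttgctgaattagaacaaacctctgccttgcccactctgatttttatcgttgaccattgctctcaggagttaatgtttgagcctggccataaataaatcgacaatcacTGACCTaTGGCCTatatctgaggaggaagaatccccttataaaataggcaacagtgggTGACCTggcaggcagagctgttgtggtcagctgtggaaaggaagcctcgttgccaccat
Acaa1b promoter, chr9:119157044-119157343, minus strand: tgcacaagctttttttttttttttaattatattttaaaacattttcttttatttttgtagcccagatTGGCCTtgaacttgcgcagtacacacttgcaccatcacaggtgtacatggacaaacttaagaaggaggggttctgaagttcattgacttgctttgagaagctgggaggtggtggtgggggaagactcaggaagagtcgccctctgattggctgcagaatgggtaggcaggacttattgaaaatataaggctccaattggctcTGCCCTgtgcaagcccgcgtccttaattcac
Acadm promoter, chr3:153944594-153944893, minus strand: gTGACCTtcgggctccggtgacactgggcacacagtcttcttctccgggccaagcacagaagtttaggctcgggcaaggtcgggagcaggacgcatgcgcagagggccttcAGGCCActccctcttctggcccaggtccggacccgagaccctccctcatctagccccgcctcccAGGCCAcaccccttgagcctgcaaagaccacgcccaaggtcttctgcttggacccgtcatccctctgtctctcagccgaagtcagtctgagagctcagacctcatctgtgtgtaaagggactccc
Fgf21 promoter, chr7:45615441-45615740, minus strand: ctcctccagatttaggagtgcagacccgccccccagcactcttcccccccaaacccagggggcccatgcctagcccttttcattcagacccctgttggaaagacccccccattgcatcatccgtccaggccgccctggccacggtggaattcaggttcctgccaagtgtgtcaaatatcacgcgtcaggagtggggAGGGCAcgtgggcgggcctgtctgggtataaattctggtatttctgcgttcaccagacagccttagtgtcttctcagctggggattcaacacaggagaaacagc
In the Fabp1 window the match reads TGACCTATGGCCT, and Fabp1 is a gene whose signals overlapped between the genotypes (given below), while the windows of Acaa1b, Acadm and Fgf21 hold only separate hexamers. These matches are letters in short windows and say nothing of binding or of elements elsewhere in these genes.

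Hadha and Hadhb, the subunits of the trifunctional protein, start 273 bases apart on opposite strands, and their windows share 228 bases between the starts. The shared stretch is shown because it is a common promoter region of both genes, and capitals again mark AGGNCA or its complement.
Hadha and Hadhb shared promoter region, chr5:30155003-30155230, plus strand: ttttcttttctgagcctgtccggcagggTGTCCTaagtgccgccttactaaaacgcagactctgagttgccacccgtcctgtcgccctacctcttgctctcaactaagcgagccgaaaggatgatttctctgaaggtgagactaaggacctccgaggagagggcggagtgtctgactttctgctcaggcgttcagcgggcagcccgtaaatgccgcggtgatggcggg
Hadha had signals of 5048, 4919 and 6059 in WT and of 3925, 6030 and 5555 in LIGHT Tg. Hadhb had 6017, 8176 and 8292 in WT and 6083, 8468 and 7392 in LIGHT Tg. In both genes the genotypes overlap.

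Among the 6 entry genes 1 passed with the block, Acsl5, and Cpt1a, Slc25a20 and Cpt2, of the carnitine shuttle, had values below 0 at their brightest probe sets, without a call. Acsl5, an acyl-CoA synthetase of the outer mitochondrial membrane and endoplasmic reticulum, had signals of 7393, 10006 and 9185 in WT 1 to 3 and of 12071, 12719 and 12356 in LIGHT Tg 1 to 3. The lowest LIGHT Tg signal exceeded the highest WT signal. The log2 difference was 0.49 ± 0.132 (SE, n = 3 per group, 1.41-fold), with an adjusted p of 0.183. The same difference passed with the block (adjusted p = 0.0215). Leaving out 1 array in the blocked fit gave adjusted p values between 0.0484 and 0.0836. Cpt1a, which makes acylcarnitine and is the malonyl-CoA-regulated step of entry, had -0.17 ± 0.159 at its brightest probe set (adjusted p = 0.836). Its other probe sets had -0.34 and 0.083, so the 3 disagreed in sign. The carnitine-acylcarnitine translocase gene Slc25a20 had -0.32 ± 0.146, with signals between 4209 and 5667 in WT and between 3710 and 3922 in LIGHT Tg, which do not overlap (adjusted p = 0.501). At its dimmer probe set Slc25a20 had -0.17 ± 0.140, and there the genotypes overlap. Cpt2, which returns acylcarnitine to acyl-CoA inside the matrix, had -0.27 ± 0.186, and 0.46 at a dimmer probe set.

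Crat, carnitine acetyltransferase, was not settled by its probe sets. The brightest had -0.35 ± 0.195 and the next had 0.49 ± 0.167, where WT signals were 646.0, 720.3 and 563.7 and LIGHT Tg signals 891.8, 887.5 and 912.1. At that second probe set the genotypes do not overlap, although its adjusted p was 0.321 (0.0914 with the block). The third, below the filter, had -0.52 ± 0.456. Fabp1, the cytosolic fatty acid carrier of hepatocytes, had signals of 24639, 28145 and 28746 in WT and of 22760, 27824 and 28859 in LIGHT Tg. These are among the top signals of the arrays, and on WT 3, LIGHT Tg 2 and LIGHT Tg 3 they are the highest of any probe set. The genotypes overlap (log2 difference -0.042 ± 0.119, adjusted p = 0.968), and the other Fabp1 probe set had -0.00050 ± 0.101. No saturation flags were used here, and a limit on bright signals was not tested.

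In the mitochondrial spiral the values furthest below 0 belonged to the medium-chain dehydrogenase and the isomerases for unsaturated chains. Acadm, medium-chain acyl-CoA dehydrogenase, had signals of 8373, 13720 and 12264 in WT and of 5932, 8877 and 6880 in LIGHT Tg. The pair was lower than the others within each genotype, and WT 1 lay below LIGHT Tg 2. The log2 difference was -0.65 ± 0.224 (1.57-fold lower; adjusted p = 0.319), and Acadm fell with the block (adjusted p = 0.0205) and in the arrays titled 30 to 35 alone (-0.73, adjusted p = 0.0452). Ech1, dienoyl-CoA isomerase of mitochondria and peroxisomes, had 5930, 6432 and 6629 in WT and 3667, 5003 and 4122 in LIGHT Tg. No values overlap, and the log2 difference was -0.58 ± 0.147 (adjusted p = 0.156, and 0.0202 with the block). Leaving out 1 array in the blocked fit gave between 0.0173 and 0.0817 for Ech1 and between 0.0270 and 0.0972 for Acadm. Eci1, the mitochondrial enoyl-CoA isomerase, also had groups that do not overlap, with 5294, 4985 and 4416 against 3120, 3888 and 3038, a log2 difference of -0.55 ± 0.150, and an adjusted p of 0.186 (0.0527 with the block).

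Most other genes of the spiral differed by little. Acaa2, the mitochondrial thiolase, had -0.24 ± 0.0920, -0.37 ± 0.118 and -0.19 ± 0.162 at its 3 probe sets. At the first of these WT signals lay between 13281 and 14254 and LIGHT Tg signals between 11420 and 12288, with an adjusted p of 0.379 (0.0876 with the block). Acadvl, the very-long-chain dehydrogenase, had 0.13 ± 0.110, with all LIGHT Tg signals (8231 to 8707) above all WT signals (6954 to 8102) and an adjusted p of 0.780. Acadl, the long-chain dehydrogenase, had -0.16 ± 0.243, Acads, the short-chain one, -0.16 ± 0.136, Acadsb, which acts on short branched chains, -0.15 ± 0.221, and Decr1, dienoyl-CoA reductase, -0.094 ± 0.111. Hadha and Hadhb, the subunits of the trifunctional protein, had -0.065 ± 0.189 and -0.033 ± 0.180. Hadh, the short-chain hydroxyacyl-CoA dehydrogenase, had signals of 18128, 17111 and 17476 in WT and of 17531, 17872 and 17420 in LIGHT Tg, a difference of 0.0033 ± 0.0816. Its SD over the 3 WT samples was 515.3 on a mean of 17572, a narrow spread, while its dimmest probe set had 0.35 ± 0.148. The electron transfer genes Etfa, Etfb and Etfdh, which pass electrons from the acyl-CoA dehydrogenases to ubiquinone, had -0.16 ± 0.117, -0.065 ± 0.168 and -0.090 ± 0.213. Etfb had 14122, 9907 and 9791 in WT and 11864, 10341 and 9745 in LIGHT Tg, with the pair highest in each genotype and the genotypes overlapping.

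**Figure D2:**
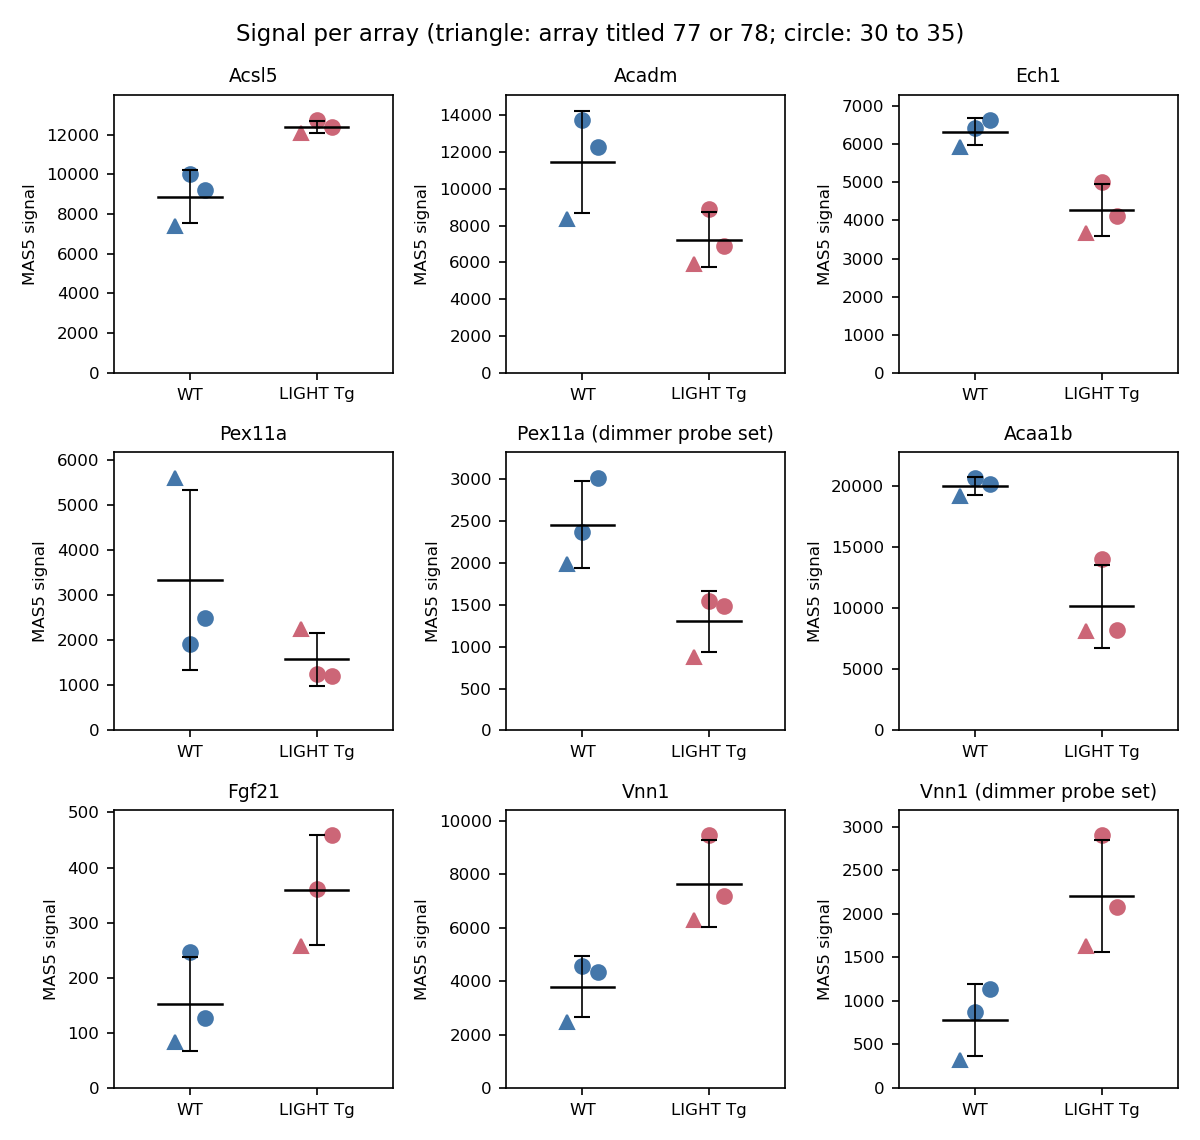
MAS5 signal on a linear axis from 0 for the 9 member probe sets that passed 5% FDR with the title-number block, WT against LIGHT Tg; triangles are the arrays titled 77 and 78, circles those titled 30 to 35, and bars are mean ± SD (n = 3). Groups do not overlap for Acsl5, Ech1, Acaa1b, Fgf21, Vnn1 and the dimmer Pex11a probe set, while WT 1 lies far above all other arrays at the brighter Pex11a probe set.

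All 8 peroxisomal genes had lower mean log2 signals in LIGHT Tg, and Acaa1b and Pex11a, furthest from 0, passed with the block. Acaa1b, a peroxisomal thiolase and a strong PPARalpha target in rodent liver, had signals of 19192, 20694 and 20177 in WT and of 8143, 14044 and 8262 in LIGHT Tg. All LIGHT Tg values lay below all WT values, and LIGHT Tg 2 stood above the other two. The log2 difference was -1.03 ± 0.211 (2.04-fold lower). It missed the threshold over 6 arrays (adjusted p = 0.0860), and Acaa1b fell with the block (0.0206) and without LIGHT Tg 2 (-1.29, adjusted p = 0.0141). Without the block it did not pass when any other array was left out, with a highest adjusted p of 0.319. In the blocked fit it passed in 2 of the 6 fits that leave out 1 array.

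Acaa1a, its close paralog, had -0.077 ± 0.161 and -0.41 ± 0.296 at probe sets of its own. A further 2 probe sets are annotated to Acaa1a and Acaa1b together, are not among the 59, and cannot be assigned to either gene. The first had 12858, 13736 and 12604 in WT and 4014, 7179 and 4058 in LIGHT Tg, without overlap. It fell by 1.42 on the log2 scale (SE 0.228, 2.67-fold; adjusted p = 0.0393, and 0.0104 with the block), but its adjusted p lay between 0.0700 and 0.182 when any array other than LIGHT Tg 2 was left out (0.0700 for WT 1, 0.182 for LIGHT Tg 3), and it was 0.00991 when LIGHT Tg 2 was. The second had -0.92 ± 0.173 (adjusted p = 0.0653, and 0.0178 with the block).

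Pex11a, a membrane protein of peroxisome division that responds to PPARalpha, had 5596, 1905 and 2491 in WT and 2249, 1258 and 1211 in LIGHT Tg at its brighter probe set. At the other it had 1985, 2371 and 3020 in WT and 882.6, 1547 and 1483 in LIGHT Tg. The genotypes do not overlap at the second probe set only. The log2 differences were nearly the same, -0.98 ± 0.426 and -0.94 ± 0.267. Both probe sets passed with the block (adjusted p = 0.0133 and 0.0116) but not without it (0.465 and 0.210). The probe sets went opposite ways between the title-number sets, with the pair higher by 1.11 at the first and lower by 0.60 at the second (adjusted p = 0.00504 and 0.0246).

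Apart from these and Acaa1a, the peroxisomal genes had differences between -0.37 and -0.31. Abcd3, the transporter of acyl-CoA into peroxisomes, had 14784, 17114 and 16727 in WT and 10106, 15586 and 12448 in LIGHT Tg, which overlap (-0.37 ± 0.165, adjusted p = 0.482, and 0.0831 with the block). Eci2, an isomerase, had 6079, 5803 and 6953 against 4597, 5489 and 4811, without overlap (-0.34 ± 0.131, adjusted p = 0.392). Hsd17b4 and Ehhadh, the multifunctional enzymes of the branched-chain and the straight-chain peroxisomal spiral, had -0.33 ± 0.154 and -0.32 ± 0.237, and Decr2, the peroxisomal dienoyl-CoA reductase, had -0.31 ± 0.179. None of these passed in either fit.

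Neither ketone body gene of the list passed. Acat1, the mitochondrial acetoacetyl-CoA thiolase that makes the first intermediate of ketogenesis, had 9391, 12067 and 11735 in WT and 7172, 11816 and 9115 in LIGHT Tg. The genotypes overlap (-0.26 ± 0.198, adjusted p = 0.758), and the other probe sets had -0.28 and -0.16. Bdh1, which reduces acetoacetate to beta-hydroxybutyrate, had 5914, 8218 and 8507 in WT and 5779, 8633 and 7003 in LIGHT Tg, again overlapping, with -0.081 ± 0.201 and -0.043 at its dimmer probe set. Their median of -0.17 rests on 2 genes and was -0.011 without LIGHT Tg 1 and -0.34 without LIGHT Tg 2, so it has no settled place in the order of the steps.

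Among the genes of control and response, Vnn1 and Fgf21 were higher. Vnn1, a pantetheinase that recycles the vitamin B5 part of coenzyme A and responds to PPARalpha, had 2486, 4555 and 4349 in WT and 6287, 9462 and 7204 in LIGHT Tg. Every LIGHT Tg value lay above every WT value. The log2 difference was 1.04 ± 0.266 (2.06-fold; adjusted p = 0.159), and Vnn1 rose with the block (0.00800). At the dimmer probe set the signals were 326.3, 875.3 and 1140 against 1633, 2902 and 2073, a difference of 1.64 ± 0.466. This probe set also passed with the block (adjusted p = 0.0120) but not without it (0.210). Fgf21, the liver hormone of fasting and nutrient stress, had 83.4, 247.2 and 127.2 in WT and 257.9, 360.7 and 458.5 in LIGHT Tg. The groups do not overlap, but LIGHT Tg 1 and WT 2 nearly meet. The log2 difference was 1.34 ± 0.436 (2.53-fold; adjusted p = 0.285, and 0.0408 with the block), and in the blocked fit it passed in 1 of the 6 fits that leave out 1 array. Its WT mean of 7.11 (log2 signal) lies below the filter at 7.39, so Fgf21 was tested because its LIGHT Tg signals were higher, and a call for it gives the list no support.

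Pdk4, the kinase that switches off pyruvate dehydrogenase and spares glucose, had 265.2, 506.3 and 379.3 in WT and 267.5, 446.5 and 870.5 in LIGHT Tg. Only LIGHT Tg 3 lay above the WT range, and the difference of 0.34 ± 0.448 was -0.10 without that array. Creb3l3, a liver transcription factor that works with PPARalpha on Fgf21, had 8266, 5358 and 6662 in WT and 6739, 6705 and 6548 in LIGHT Tg, a difference of 0.0013 ± 0.167.

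Within the title-number sets the members mostly kept their sign. Of the 35 genes 28 had 1 sign within both sets (64.0% of all 11563 genes did), with medians of -0.20 for the pair and -0.14 for the others. All 8 peroxisomal genes were lower in both, with medians of -0.36 and -0.34. Cpt1a had -0.60 within the pair and 0.052 within the others. Acadsb had -0.63 and 0.092. The interaction of genotype and title-number set, fitted with 2 residual degrees of freedom, called none of the 55 member probe sets at 5% FDR (0.0666% of all tested, 15 probe sets, were called). An unadjusted p below 0.05 was reached by 3 of the 55 (5.45%, against 11%), Cpt1a and Acadsb among them and the dimmer Vnn1 probe set the other, with adjusted p values of 0.287, 0.375 and 0.417.

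**Figure D3:**
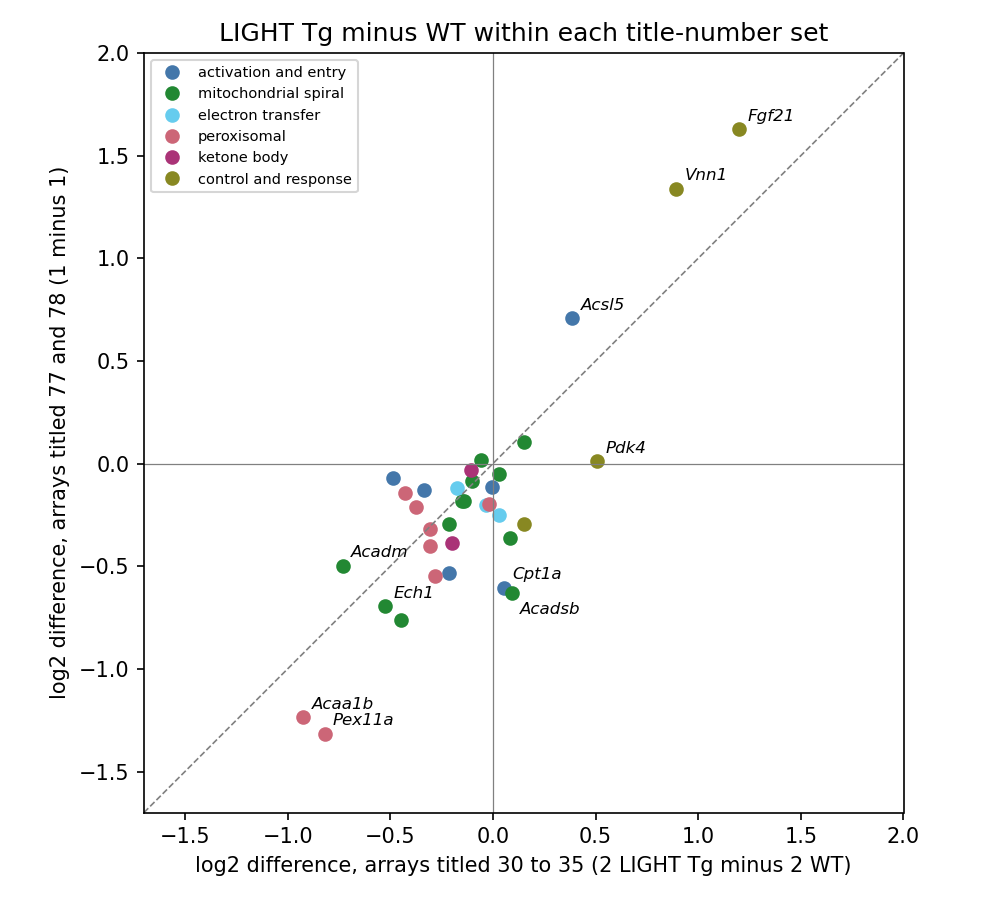
Log2 difference of LIGHT Tg minus WT in the arrays titled 77 and 78 (1 minus 1, vertical) against that in the arrays titled 30 to 35 (2 minus 2, horizontal) for 35 genes, 1 probe set each, with the dashed line marking equal differences. Vnn1, Fgf21 and Acsl5 are positive and Acaa1b, Pex11a, Acadm and Ech1 negative on both axes; Cpt1a and Acadsb are negative in the pair and positive in the others.

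Between the title-number sets themselves, with genotype in the fit, 15 of the 55 member probe sets differed at 5% FDR (27.3%), a share near the 27.4% of all tested. Lower in the pair were 13 of these (15.7% of all tested were) and higher were 2 (11.7%). Bdh1 and Acat1, the ketone body genes, were both lower in the pair at their brightest probe set, by 0.46 and 0.44 on the log2 scale (adjusted p = 0.0178 and 0.0305). Acadl was lower by 0.63 (0.00398), Acadm by 0.51 (0.0227), Hadhb by 0.42 (0.0152), Etfdh by 0.47 (0.0267), Pdk4 by 0.97 (0.0459), Vnn1 by 0.62 (0.0228) and Fabp1 by 0.26 (0.0158). Etfb and the brighter Pex11a probe set were the 2 higher in the pair, by 0.38 (0.0193) and 1.11. Each set holds both genotypes, so these differences are not part of the LIGHT Tg comparison. The pair and the others differ in the Xist and Eif2s3y signals given above and in title number, and these cannot be told apart.

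**Figure D4:**
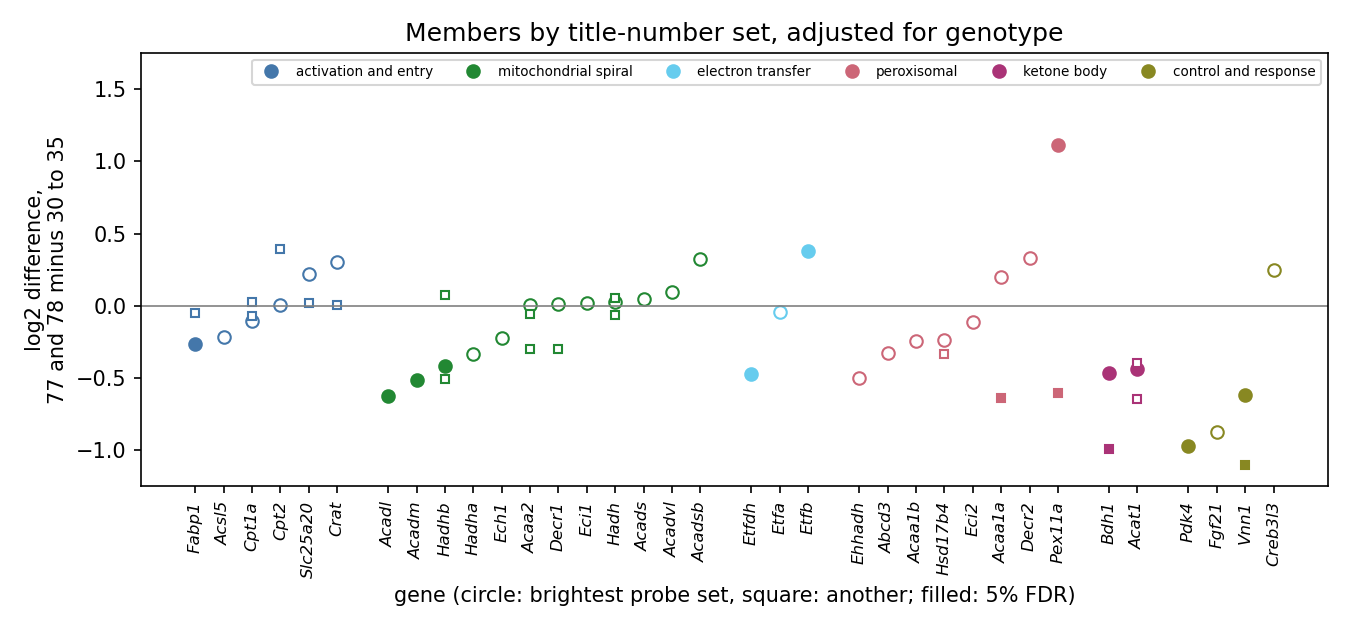
Log2 difference of the arrays titled 77 and 78 minus those titled 30 to 35, adjusted for genotype, for all 55 tested member probe sets (circles: brightest probe set of a gene; squares: others; filled: 5% FDR). Both ketone body genes are below 0, and the 2 Pex11a probe sets lie on opposite sides of it.

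Other genes of these pathways were taken from a list of 114, of which 101 had a probe set and 93 were tested with 1 probe set each. Of the 93, 1 rose and 3 fell in the fit of the 6 arrays (1.36% of 11563 genes were called), and with the block 9 rose and 20 fell (3.63% and 3.52% of all). The median was -0.11 and 61 were negative. On this list the median was -0.12 for 25 peroxisomal genes, 17 of them negative. It was -0.057 for 17 genes grouped as mitochondrial, 10 of them negative. The other medians were -0.24 for 4 electron transfer genes, -0.030 for 16 entry, 0.017 for 6 ketone body and -0.13 for 25 control genes. The peroxisomal genes were thus not all lower here, and their median was not the lowest of the steps. Acacb, the mitochondrial acetyl-CoA carboxylase whose product malonyl-CoA inhibits CPT1, rose by 1.16 ± 0.194 (adjusted p = 0.0445). Its signals were 1501, 1346 and 1584 in WT and 4141, 2641 and 3290 in LIGHT Tg, without overlap. Nudt7, a peroxisomal hydrolase of coenzyme A and acyl-CoA, had 14670, 13216 and 14239 in WT and 4368, 2946 and 4703 in LIGHT Tg. It fell by 1.84 ± 0.186 (adjusted p = 0.00827), and its other probe set fell by 1.92 ± 0.307 (0.0393). Prkaa2, a catalytic subunit of AMP-activated kinase, fell by 1.03 ± 0.160 (0.0363), and Nr1h4, the bile acid receptor, fell by 1.28 ± 0.206 (0.0393). Of these 4 genes none stayed past the threshold whichever array was left out, with highest adjusted p values of 0.208 for Acacb, 0.0515 for Nudt7, 0.187 for Prkaa2 and 0.199 for Nr1h4. All 4 also passed with the block (adjusted p between 0.00204 and 0.00933).

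With the block, further peroxisomal genes changed in both directions. Pecr fell by 0.64, Acox2, the oxidase of bile acid intermediates and branched chains, by 0.74, Amacr, a racemase of branched chains, by 0.64, Crot, carnitine octanoyltransferase, by 0.64, and Phyh, which hydroxylates phytanoyl-CoA, by 0.44, while Acot3 and Acot4, peroxisomal thioesterases, rose by 1.99 and 1.11 and Hacl1 by 0.44 (adjusted p between 0.00816 and 0.0412). Of 25 peroxisomal genes tested on this list 3 rose and 6 fell with the block. Of 17 genes that the list grouped as mitochondrial, Acad9 and Echdc1 rose by 0.84 and 0.77, and Hsd17b10, Ivd and Mcee fell by 0.56, 0.58 and 0.51. The place of each protein in the cell was not checked. Of 4 electron transfer genes Etfbkmt, a methyltransferase of the electron transfer flavoprotein, fell by 1.40.

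Of 16 entry genes, with the block Acacb and Acsl4 (0.67) rose and Slc22a5, the carnitine transporter (-0.74), Slc27a5 (-0.33), Acsm3 (-1.12) and Acsm5 (-0.77) fell. Of 6 ketone body genes, Slc16a6, a transporter that exports ketone bodies, rose by 3.26 ± 0.881 (adjusted p = 0.186, and 0.000455 with the block). Its signals were 46.4, 288.8 and 355.4 in WT and 616.6, 2261 and 3001 in LIGHT Tg, with the pair lowest in each genotype and no overlap. Slc16a1, a monocarboxylate transporter, rose by 0.70, and Bdh2 and Sirt3, a mitochondrial deacetylase, fell by 0.84 and 0.80. Of 25 control genes 4 fell with the block: Nr1h4, Prkaa2, Cyp4a14, a fatty acid omega-hydroxylase (-4.23, adjusted p = 0.0120 with the block) and Fgfr4, a receptor for FGF hormones (-0.70, 0.0428). Cyp4a14 had signals of 1261, 14469 and 12112 in WT and of 248.8, 680.6 and 196.7 in LIGHT Tg, with WT 1 far below the other WT arrays and still above every LIGHT Tg array. Ppara itself had -0.14, -0.23 and -0.23 at 3 probe sets (adjusted p between 0.857 and 0.970) and is named after its values were seen. Ppargc1a, a coactivator of oxidative genes, had -0.74 ± 0.272 at its brightest probe set (0.361, and 0.0729 with the block), while 2 dimmer ones fell with the block, by 1.27 and 2.10 (0.00960 and 0.0107). Ppargc1b had -2.21 ± 0.722 (0.286), Rxra -0.45 ± 0.149 (0.290), Foxa2 0.63 ± 0.209 (0.303), the fatty acid translocase Cd36 1.22 ± 0.440 (0.349) and Pex7 -0.37 ± 0.147 (0.413), and none of these passed in either fit. A dimmer probe set of Aacs, acetoacetyl-CoA synthetase, fell with the block by 0.85 (0.0151), while its brightest had -0.41 (0.111 with the block).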

How the data were processed

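Liver RNA of 6 samples was hybridised to 1 Affymetrix array each. The authors deposited MAS5 intensities, 1 linear signal per probe set, per the submitters' processing notes; neither the software version nor the scaling target is stated in the labels, and no detection calls were used. Array totals lay between 30980000 and 32710000; the number of arrays limits the precision. Of 45101 probe sets 64 controls were left out. Genes were named from GEO's platform annotation (34945 probe sets with 1 symbol, 932 with several, 9160 unnamed here).

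Signals below 1 (106 values) were set to 1, log2 was taken, and 22519 probe sets with a mean log2 signal of at least 7.39 were tested with limma 3.58.1 (R 4.3.3, lmFit and eBayes with a variance trend), two-sided, with Benjamini-Hochberg adjustment over all tested and 5% FDR. Differences are LIGHT Tg minus WT. An exact permutation test of 3 against 3 cannot go below p = 0.1. Members under the filter take values from a fit of all probe sets. A gene stands as its probe set with the highest mean. Members and gene lists were chosen with earlier results of these data known. Signals on every array are given for members past 5% FDR in either fit and for the brightest member of each step, and for some others chosen after their values were seen; of the other pathway genes, those past it and 6 more with the largest moderated statistic are named. Alternatives were the filter, an offset before log2, normalization, the eBayes settings, the block, probe set means and left-out arrays. The fits were tested on simulated data. Plots used matplotlib 3.10.9 under Python 3.11.15.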

Additional observations from a re-analysis of the deposited data

Results flagged for a closer look

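Abcd2, a peroxisomal transporter of very long chain acyl-CoA and not a member, stood out because its LIGHT Tg minus WT difference differed between the title-number sets at 1 of its 3 tested probe sets. The signals there were 19.0 in WT 1 and 312.2 in LIGHT Tg 1, against 770.0 and 881.9 in WT 2 and 3 and 807.8 and 647.6 in LIGHT Tg 2 and 3. The WT 1 signal lies far below the filter level of 167.4, where the size of a log2 difference depends on a dim value. As measured, the difference was 4.04 within the pair, 1 array against 1, and -0.19 for the others. The interaction of 4.23 ± 0.329 (limma, 2 residual degrees of freedom) had an adjusted p of 0.0373. At the brightest probe set the interaction was 1.21 (adjusted p = 0.584) and at the third tested one 2.91 (0.275). The difference within the pair has no replicate, and its size is not read as exact.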

How the results depend on the processing

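With robust fitting, either filter, the offset (37.4), quantile normalization or a common median, no member passed and all counts of probe sets called over the array stayed within 1.5 times the 264 of the fit reported. That count was 148 without the variance trend, 1457 with the title-number block, 956 in the arrays titled 30 to 35 alone and 43 to 306 when 1 array was left out. The count of member probe sets called, 0, became 9 with the block, 4 in the arrays titled 30 to 35 and 0 to 1 with 1 array left out; the blocked count, in fits chosen after seeing the data, was 4, 5 and 2 without WT 1, 2 or 3 and 4, 10 and 6 without LIGHT Tg 1, 2 or 3.

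The median over the 35 genes was -0.25 to -0.14 with 1 array left out, that of the peroxisomal genes -0.47 to -0.29 that of the mitochondrial genes -0.20 to -0.086, that of the electron transfer genes -0.22 to -0.098, that of the ketone body genes -0.34 to -0.011 and that of the control genes 0.46 to 0.96. Quantile normalization gave -0.10 over the 35 genes, -0.11 for the ketone body genes and -0.042 for electron transfer, which had -0.033 in the arrays titled 30 to 35. The entry median was -0.27 to -0.15 with 1 array left out, -0.11 in the arrays titled 30 to 35 and -0.073 with the mean of all probe sets.

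Of 35 members 21 kept their sign in every alternative run, the 7 called with the block among them. The other 14 had a change of sign, none past the threshold on either side. Quantile normalization gave 0.033 for Hadha, 0.045 for Hadhb and 0.0067 for Etfb. The arrays titled 30 to 35 gave 0.052 for Cpt1a, 0.092 for Acadsb, 0.084 for Hadha and 0.028 for Etfb. The mean of all probe sets gave 0.096 for Cpt2, 0.49 for Acadl, 0.017 for Hadhb and 0.60 for Etfdh. For Acadl and Etfdh this mean takes in a probe set too dim to be tested, with 1.14 and 1.29. Their brightest probe sets had -0.16 and -0.090. With 1 array left out the ranges were -0.11 to 0.064 for Fabp1, -0.36 to 0.060 for Acadl, -0.28 to 0.079 for Acadsb, -0.19 to 0.12 for Hadha, -0.18 to 0.093 for Hadhb, -0.016 to 0.026 for Hadh, -0.16 to 0.11 for Etfb, -0.25 to 0.097 for Etfdh, -0.16 to 0.018 for Acaa1a, -0.25 to 0.062 for Bdh1, -0.10 to 0.75 for Pdk4 and -0.16 to 0.16 for Creb3l3. The probe set shared by Acaa1a and Acaa1b had an adjusted p of 0.0601 without the filter, 0.0874 without the trend and 0.0502 in the arrays titled 30 to 35. The cause of these changes was not tested.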
